A study of Mus musculus with 2 samples.

Results

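The genes described here are 8 cathepsins (Ctsl, Ctss, Ctsb, Ctsc, Ctsd, Ctsh, Ctsk and Ctsz) and Prss16, which encodes thymus-specific serine protease. They were taken by name, as lysosomal proteases that shape peptides for MHC class II molecules in the thymic cortex and medulla, and they are 9 of the 19505 genes that the probes of the array name. All 9 were on the array, with 13 probes. On each of 2 arrays, Cy5-labelled RNA of a reaggregation thymus organ culture (RTOC) was hybridized with Cy3-labelled RNA of a flat (2D) culture, both of thymic stromal cells. One array holds cells from thymus lobes of C57BL/6 fetuses at E14.5 and the other cells from lobes at E15.5. Deoxyguanosine, a nucleoside that depletes dividing lymphoid cells, was present at 1.35 mM while all lobes were first grown as organs, for 8 days (E14.5) or 9 days (E15.5). They were then dispersed, and the cells were placed as a dense drop on a membrane for RTOC or spread on a dish for 2D culture, and were harvested after 72 h. The comparison asks which genes differ between the reaggregated and the flat arrangement. The methods name no step that sorted one stromal cell type from the others.

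Each array is 1 pair of cultures, so n = 2 throughout. Both arrays were on 1 slide, were scanned together and had the same dye orientation, so dye and culture cannot be told apart. The stage of the fetuses and the days of organ culture differ together between the arrays and cannot be told apart. The lowest p that an exact sign-flip test allows with 2 arrays is 0.5, and the p-values given here therefore rest on limma, which borrows the spread of all probes. In such bulk RNA, fewer cells of a type and less RNA per cell cannot be told apart.

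Cathepsins are proteases of the endosome and lysosome, made as inactive precursors and activated as the compartment becomes acidic. In antigen-presenting cells they cut the invariant chain that blocks the groove of class II molecules, and they cut the proteins whose fragments are then loaded there. Thymic epithelial cells of the cortex are known to use cathepsin L for these steps, whereas dendritic cells, macrophages and B cells use cathepsin S. Thymus-specific serine protease is a carboxypeptidase-like enzyme of cortical epithelial cells. Mice without cathepsin L or without thymus-specific serine protease are known to select CD4+ T cells poorly or with an altered repertoire.

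Each probe is a 60-base oligonucleotide printed as 1 spot per array. Its first 30 bases, from the 5′ end, are given for the genes on which the results turn, because the genes with a second probe were read at another stretch of the transcript. No 15-base stretch of any of the 13 probes occurs in a probe of another gene on the array, so no pair of these proteases shared a probe stretch of that length.
Prss16, main probe: aatgtaggcaaatgattactgtcctttgta
Prss16, second probe: tgggattgcatttcagtgactcaatgttgt
Ctsl: accaaacccttattgagtcaaaccatggta
Ctss: ttgcctgcaatatccagaggaaccaagtgt
Ctsd, main probe: gaaggagcaagaggacagaagcaaaactat
Ctsd, second probe: gaggcaaaaactatgaactacacccagaca

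In the assembly GRCm38.p6, for which the annotation used gives only the outer ends of genes and no exons, Prss16 lies at chr13:22002176-22009741 and Ctsl at chr13:64361890-64370772. Ctsk, at chr3:95499210-95509387, and Ctss, at chr3:95526786-95556405, are separated by 17398 bp and 1 annotated gene. Ctsc lies at chr7:88278024-88315861 and Ctsd at chr7:142375910-142387827. Ctsb is on chromosome 14, Ctsh on chromosome 9 and Ctsz on chromosome 2.

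Signals are given below as processed intensities after quantile normalization of the 4 channels, in arbitrary units that are comparable between cultures for one probe but not between probes. Ratios are log2 of RTOC over 2D culture, so that 1 is a 2-fold higher signal in RTOC. Of the 9 genes, 2 were higher in RTOC past an adjusted p of 0.05 (limma, Benjamini-Hochberg over 23685 probes), 0 were lower and 7 did not pass. Of all 13506 genes tested, 15.4% were called higher and 12.7% lower, 28.1% in all (28.8% of all probes). The called genes were Prss16 and Ctsl. The plot of the signals of each gene in both cultures shows the 9 genes on one scale of differences.

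**Figure D1:**
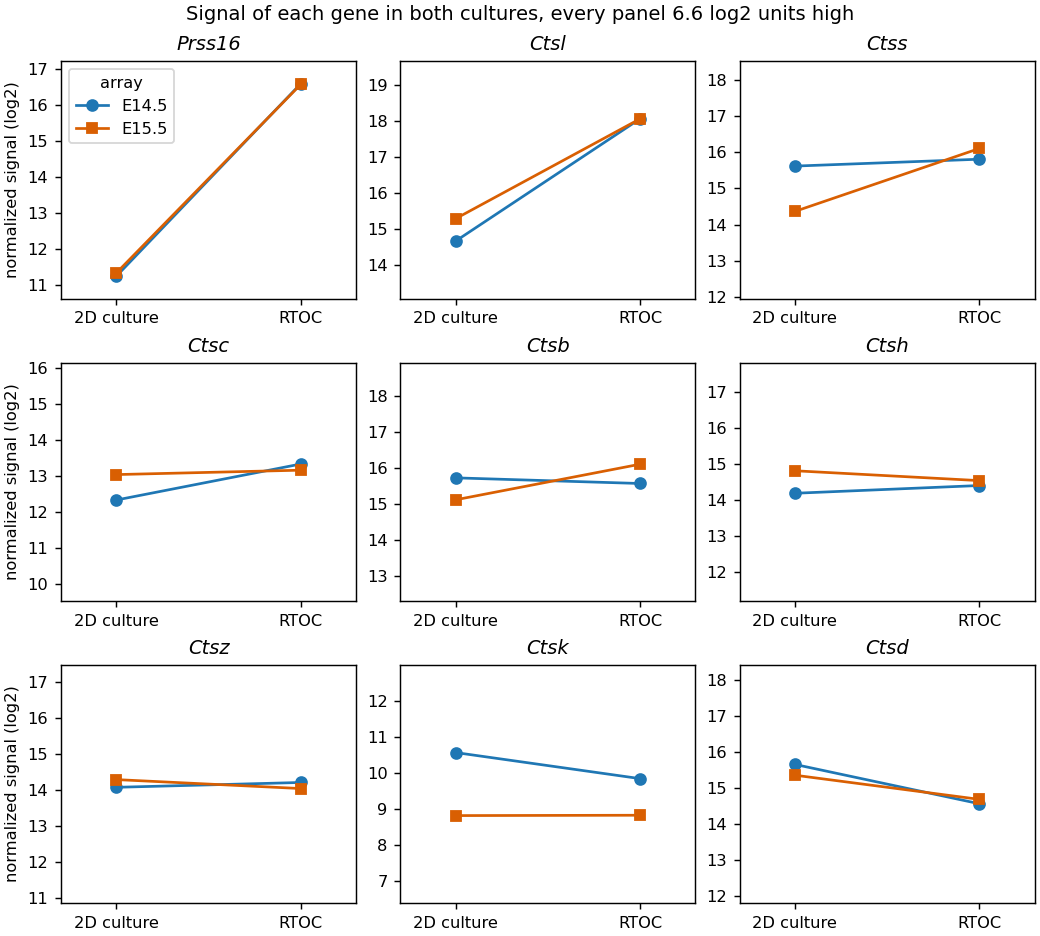
Normalized signal (log2, arbitrary units) of the main probe of each gene in 2D culture and in RTOC, with 1 line per array (circles E14.5, squares E15.5) and panels ordered by the mean ratio. Every panel is 6.6 log2 units high, so slopes can be compared between panels: Prss16 rose by 5.34 and 5.23 and Ctsl by 3.39 and 2.77, while the lines of Ctsb, Ctsh, Ctsk and Ctsz ran in opposite directions on the arrays.

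Prss16 had the greatest difference between the cultures among the 9 genes. In 2D culture the signal of its main probe was 2436 (E14.5) and 2594 (E15.5), and in RTOC it was 98887 and 97606. Both 2D samples thus lay far below both RTOC samples. Before quantile normalization, the processed signals in RTOC were 112338 and 89457, further apart than after it. The log2 ratio was 5.34 for E14.5 and 5.23 for E15.5. The mean of 5.29 ± 0.08 (SD, n = 2 arrays) is a 39.1-fold higher signal in RTOC, with a 95% interval of 25.3 to 60.4 (limma, SE 0.25 on the log2 scale, adjusted p = 0.00161).

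The second Prss16 probe, designed on another transcript record, gave a signal of 25.3 (E14.5) and 36.9 (E15.5) in 2D culture, not well above background on either array. In RTOC its signal was 805.8 and 738. Here too every RTOC sample was above every 2D sample. The ratios of 4.99 and 4.32 rest on a 2D value near background, so the difference is given as at least 2.20-fold higher in RTOC. The probe entered the test through its RTOC signal alone, which fixes the direction, so no p is given and it does not add to the result of the main probe. That bound was taken per channel after normexp background correction with loess and Aquantile normalization, and sets the mean in RTOC against, on each array, the lowest 2D signal of any probe well above background. On that scale the measured means were 5.94 in 2D culture and 7.14 in RTOC (log2), and without a dye swap they are open to dye bias.

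Among the 13506 genes tested, 8 had ratios at least as high as those of Prss16 on both arrays, and 4 of these were well above background in all 4 channels. The 3 genes whose pair of ratios was nearest to that of Prss16, by Euclidean distance among 12073 other genes well above background in all channels, were Pth, Grp and Clic5. Pth, the parathyroid hormone gene, had ratios of 5.20 and 5.02 and lay at a distance of 0.26. Grp, which encodes gastrin-releasing peptide, had ratios of 5.06 and 5.08 at a distance of 0.32. Clic5, a chloride intracellular channel gene, had ratios of 4.90 and 5.20 at a distance of 0.45. Likeness over 2 arrays is a description of these values only.

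Ctsl, which encodes cathepsin L, the cysteine protease of cortical epithelium, was the other called gene. Its signal in 2D culture was 26005 (E14.5) and 40031 (E15.5). In RTOC it was 273428 and 273431, nearly identical because quantile normalization gives probes of nearly the same rank nearly the same value, whereas the processed signals before that step were 262931 and 199106. No Ctsl spot was marked as saturated, and both 2D samples lay below both RTOC samples. The log2 ratio was 3.39 for E14.5 and 2.77 for E15.5. The mean of 3.08 ± 0.44 (SD, n = 2) is an 8.47-fold higher signal in RTOC, with a 95% interval of 5.19 to 13.8 (limma, SE 0.28, adjusted p = 0.00247). In all, 191 of the 13506 genes had ratios at least as high as those of Ctsl on both arrays. Of these, 89 were well above background in all 4 channels. The intervals of Prss16 and Ctsl did not overlap on the log2 scale (4.66 to 5.92 and 2.38 to 3.79).

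Both calls depended on leaving out dim probes. With every probe in the fit, no probe of the array passed, and the adjusted p was 0.117 for Prss16 and for Ctsl at the same ratios. Under other background corrections and scalings of the arrays, both kept their calls. Ctsl did not pass the methods' t-test before adjustment, and Prss16 did.

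**Figure D2:**
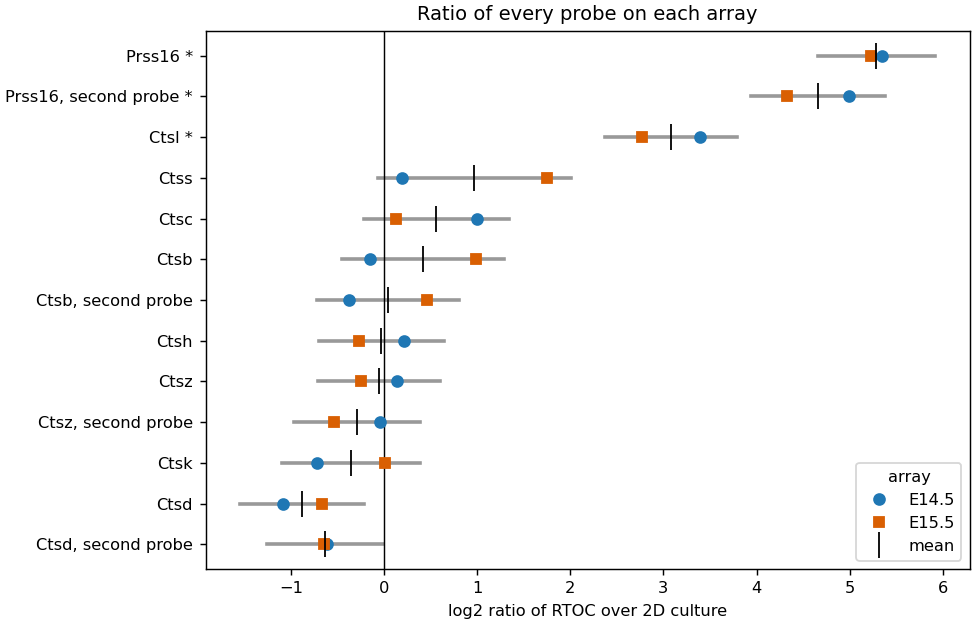
Log2 ratio of RTOC over 2D culture for all 13 probes, with circles for the E14.5 array, squares for the E15.5 array, a vertical tick for the mean and a grey bar for limma's 95% interval. Asterisks mark probes past the threshold, which are those of Prss16 and Ctsl. In 2D culture the second Prss16 probe was too dim to be well above background. The filter therefore fixed its direction, and a mark on that probe adds nothing to the result of the main probe.

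Ctss encodes cathepsin S, the cysteine protease that cuts the invariant chain in bone marrow-derived antigen-presenting cells. Its signal in 2D culture was 50418 (E14.5) and 21075 (E15.5), and in RTOC it was 57549 and 70724. The 2D sample of E14.5 lay close to the RTOC samples, and the 2D sample of E15.5 well below them. The ratios were therefore unequal, at 0.19 and 1.75. Their mean of 0.97 ± 1.10 (SD, n = 2) did not pass (limma, SE 0.42, 95% interval -0.07 to 2.01, adjusted p = 0.134).

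Ctsb encodes cathepsin B, a cysteine protease that is abundant in most lysosomes. The main probe had a signal of 54009 (E14.5) and 35404 (E15.5) in 2D culture and of 48455 and 70208 in RTOC. The cultures overlapped, and the sign of the ratio differed between the arrays, at -0.16 and 0.99. The mean ratio was 0.42 (95% interval -0.46 to 1.29, adjusted p = 0.407). The second Ctsb probe repeated the opposite signs, with ratios of -0.37 and 0.46 and a mean of 0.04 (adjusted p = 0.930).

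Ctsc encodes cathepsin C, a dipeptidyl peptidase that activates granule serine proteases. In 2D culture its signal was 5139 (E14.5) and 8384 (E15.5), and in RTOC it was 10275 and 9126. Both RTOC samples were above both 2D samples, although the margin was small on the E15.5 array. The ratios of 0.9996 and 0.12 had a mean of 0.56 (95% interval -0.22 to 1.34, adjusted p = 0.224).

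Ctsd encodes cathepsin D, the main aspartic protease of the lysosome, and its main probe had the lowest mean ratio among the 9 genes. The signal of its main probe was 51680 (E14.5) and 42001 (E15.5) in 2D culture against 24253 and 26385 in RTOC, so that both RTOC samples lay below both 2D samples. The ratios were -1.09 and -0.67, with a mean of -0.88 ± 0.30 (SD, n = 2, limma SE 0.27, 95% interval -1.54 to -0.22). The adjusted p was 0.0582, just outside the threshold. The second probe had ratios of -0.62 and -0.65 and a mean of -0.63 (adjusted p = 0.113). The main probe passed in 5 of 13 settings of the processing, with adjusted p-values from 0.0390 to 0.383 over all of them. Both counts include the series values and the signals without quantile normalization as separate settings, although their values were the same.

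Ctsh encodes cathepsin H, an aminopeptidase of the papain family. Its signal was 18707 (E14.5) and 28842 (E15.5) in 2D culture and 21712 and 23867 in RTOC. The RTOC samples lay between the 2D samples, and the ratios were 0.21 and -0.27. The mean ratio was -0.03 (95% interval -0.71 to 0.65, adjusted p = 0.945), and its sign turned under another scaling.

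Ctsz encodes cathepsin Z, a carboxypeptidase of the same family. Its main probe gave 17350 (E14.5) and 20127 (E15.5) in 2D culture and 19043 and 16942 in RTOC. These 4 samples overlapped, with ratios of 0.13 and -0.25 and a mean of -0.06 (95% interval -0.71 to 0.60, adjusted p = 0.887), and the sign of the mean turned under another scaling. The second probe had ratios of -0.04 and -0.54 and a mean of -0.29 (adjusted p = 0.454).

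Ctsk encodes cathepsin K, the collagen-degrading cysteine protease of osteoclasts. Its signal was 1518 (E14.5) and 451 (E15.5) in 2D culture and 919 and 454 in RTOC. On the log2 scale, each culture differed more between the arrays than the cultures did on either array. The ratios were -0.72 and 0.01, with a mean of -0.36 (95% interval -1.09 to 0.38, adjusted p = 0.399). Its neighbour Ctss thus had a mean ratio of 0.97 and Ctsk one of -0.36, and neither passed.

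Of the 9 genes, 4 (Ctsb, Ctsh, Ctsk and Ctsz) had ratios of opposite sign on the arrays, whereas 20.4% of all genes tested did so. Only Prss16 and Ctsl of the 9 were at least 2-fold higher in RTOC on both arrays, which 11.5% of all genes were, and none was at least 2-fold lower on both, which 9.06% were. The median of the mean ratios over the 9 genes was 0.42, against 0.00 over all genes tested. The second probes of Ctsb, Ctsd and Ctsz had means of the same sign as the main probes.

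**Figure D3:**
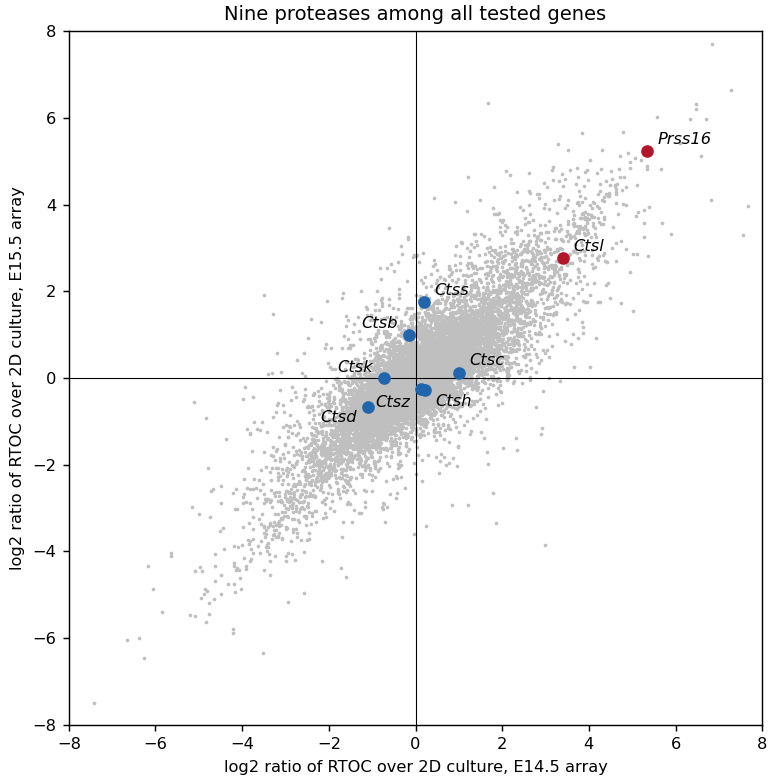
Log2 ratio of RTOC over 2D culture for E14.5 (horizontal axis) and E15.5 (vertical axis) for the 13506 genes tested (grey points), with the 9 proteases marked in red where past the threshold and in blue otherwise. Prss16, at 5.34 and 5.23, and Ctsl, at 3.39 and 2.77, lie in the upper right, and the other 7 genes lie within the bulk of the genes near the origin.

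The 250 bases before the start of a transcript were read from RefSeq (GRCm38.p6) for the 6 genes with an entry, which are Ctsl, Ctss, Ctsc, Ctsd, Ctsk and Ctsz. Prss16, Ctsb and Ctsh were not matched. The strings of letters searched on both strands were ACGC, the core of the sites that Foxn1 binds, CACGTG, the core of the E-box bound by the TFEB family that controls lysosomal genes, TTCNNNGAA, the letters of a STAT site, and AANNGAAA, the core letters read by interferon regulatory factors. ACGC can share an end base with CACGTG, and TTCNNNGAA can share GAA with AANNGAAA. The sequences of the Ctss and Ctsd windows are shown because these genes had mean ratios of opposite sign, neither past the threshold, and their windows hold different strings. Capitals mark AANNGAAA or CACGTG, and the last base is the one next to the start.
Ctss, chr3:95526536-95526785, plus strand: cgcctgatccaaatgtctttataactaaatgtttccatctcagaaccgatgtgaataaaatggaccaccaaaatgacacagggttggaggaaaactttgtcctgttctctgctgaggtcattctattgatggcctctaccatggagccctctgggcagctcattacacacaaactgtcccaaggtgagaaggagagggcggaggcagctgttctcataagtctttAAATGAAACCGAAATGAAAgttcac
Ctsd, chr7:142387828-142388077, minus strand: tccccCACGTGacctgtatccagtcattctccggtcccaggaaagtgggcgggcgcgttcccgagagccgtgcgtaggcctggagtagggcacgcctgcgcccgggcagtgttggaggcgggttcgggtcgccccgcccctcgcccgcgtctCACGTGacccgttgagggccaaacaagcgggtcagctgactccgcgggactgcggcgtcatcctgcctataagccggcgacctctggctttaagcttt

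CACGTG was found in the windows of Ctsd, at 245 and 98 bases before the start, and of Ctsl, at 236 bases, and 6.02% of 32851 promoter windows hold it. The RefSeq gene of Ctsl reaches 2 bases beyond its window, so that window lies within the span of the annotated gene and may not be upstream of every Ctsl transcript. Of the Ctsc window, the last 61 bases likewise lie within the annotated gene. ACGC was in the windows of Ctsl, Ctsc and Ctsd, and 49.8% of all windows hold it. Only Ctsc held TTCNNNGAA (7.02% of all windows). AANNGAAA was in the window of Ctss in 3 overlapping matches, at 25, 19 and 14 bases before the start, and in that of Ctsl, at 129 and 67 bases (21.3% of all windows). This string was added to the search after the Ctss window was seen, so its presence there was fixed in advance. These matches describe letters in the windows, and binding was not measured.

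The other genes of the pathway were read from lists of cathepsins, cystatins, class II genes and lysosomal genes. Over all lists together, 79 of 102 genes on the array were tested, of which 17 were higher in RTOC and 8 lower. The split was 14 higher and 2 lower with normexp and median centring, 13 and 2 without the pairing of cultures on an array, and 13 and 12 with eBayes trend and robust fitting. Class II presentation held most of the higher calls, 10 of 17. Of all 13506 genes tested, 15.4% were called higher and 12.7% lower, 28.1% in all. The plot of the lists shows each tested gene.

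Of the 14 other cathepsins, 6 were tested, and 1 was higher and 1 lower in RTOC. Ctso, a cysteine cathepsin, had ratios of 2.04 and 0.76 (mean 1.40, adjusted p = 0.0414). Ctsw, a cathepsin of cytotoxic lymphocytes, had ratios of -2.56 and -3.18 (mean -2.87, adjusted p = 0.00284). With normexp background correction the Ctsw mean was smaller, -0.88 with loess (adjusted p = 0.0305) and -0.79 with median centring (adjusted p = 0.0511), and the Ctso call was lost with loess (adjusted p = 0.0810). The 8 not tested include the placental cathepsins Cts3, Cts6, Cts7, Cts8, Ctsj, Ctsm, Ctsq and Ctsr, none of which was well above background in any channel. Of the lysosomal peptidases outside the family, 7 of 8 were tested and 0 passed (limma, 0 also at an unadjusted p under 0.05). Lgmn, the asparaginyl endopeptidase that processes cathepsin precursors, had ratios of 0.44 and 0.14, and Tpp1, a tripeptidyl peptidase, had ratios of -0.54 and -0.39.

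Cystatins and stefins are the inhibitors of cysteine cathepsins. Of 14 on the array, 5 were tested, of which 2 were higher and 1 lower. Cstb, the cytosolic inhibitor stefin B, had a signal of 17367 (E14.5) and 14356 (E15.5) in 2D culture and of 143575 and 147819 in RTOC. Its ratios were 3.05 and 3.36 (mean 3.21, adjusted p = 0.00209), and both RTOC samples lay far above both 2D samples. Cst6, a secreted cystatin of stratified epithelium, moved the other way, with ratios of -2.34 and -1.85 (mean -2.10, adjusted p = 0.00544). Cst3, the widely secreted cystatin C, had ratios of 0.60 and 0.58 and did not pass (adjusted p = 0.132). The third call, Stfa3, was dim in 2D culture (not well above background), and its signal was at least 1.33-fold higher in RTOC. It was tested only through its RTOC signal, so its direction was fixed by the filter.

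Among class II presentation genes, 10 of 13 were tested and all 10 were higher in RTOC, with a median ratio of 2.84. H2-Aa, a class II chain, had the highest mean ratio of the list, 4.32 (adjusted p = 0.00161). Ciita, the coactivator that switches on class II genes, had a mean ratio of 3.62 (adjusted p = 0.00172), and H2-Eb1 one of 3.52. The lowest 3 were H2-DMa (2.23) and H2-DMb2 (1.66), chains of the H2-DM peptide editor, and Ifi30 (1.21), the lysosomal thiol reductase that unfolds antigens for the cathepsins. With normexp and loess the values of Ciita (2.46), H2-DMa (1.35), H2-DMb2 (0.79), H2-Aa (3.43) and H2-Eb1 (2.88) were lower and still passed, and H2-DMb2 was lost without the pairing of cultures (adjusted p = 0.107). With eBayes trend and robust fitting the Ifi30 call was lost (adjusted p = 0.0507). H2-Ea, H2-Eb2 and H2-Ob were not well above background in any channel. C57BL/6 mice are known to lack a functional H2-Ea transcript.

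The genes that build the lysosome itself showed smaller differences. Of 20 lysosomal hydrolases other than proteases, all tested, 2 were higher and 2 lower, with a median ratio of -0.10. Lipa, the lysosomal acid lipase gene, had a mean ratio of 1.09 (adjusted p = 0.0360). Asah1, the acid ceramidase gene, had a mean ratio of -1.20 (adjusted p = 0.0307), and Galns, which encodes a sulphatase, one of -0.97 (adjusted p = 0.0458). The Galns call was lost with normexp and loess (-0.34, adjusted p = 0.168) and with median centring (-0.22, adjusted p = 0.375), and the Lipa call with median centring (adjusted p = 0.0645). Of 20 genes for the lysosomal membrane and proton pump, 19 were tested, 0 were higher and 2 were lower. These were Cd63, a tetraspanin (mean -0.90, adjusted p = 0.0492), and Atp6v0c, a proton pump subunit (mean -1.05, adjusted p = 0.0315). Both calls were lost with median centring, where Cd63 was at -0.27 (adjusted p = 0.334) and Atp6v0c at -0.71 (adjusted p = 0.0635). Without the pairing of cultures on an array, the calls of Cd63, Atp6v0c, Lipa, Asah1 and Galns were lost too (adjusted p 0.0530 to 0.0953).

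Cathepsin precursors are carried to the lysosome by mannose 6-phosphate receptors and sortilin. Of the 13 genes of this delivery, 12 were tested, of which 2 were higher and 2 lower. Sort1, which encodes sortilin, had a mean ratio of 1.27 (adjusted p = 0.0246) at its main probe, but its 4 tested probes ran from -0.10 to 1.27 and their median of 0.44 did not pass (adjusted p = 0.239). Igf2r, the larger mannose 6-phosphate receptor, had a mean ratio of -0.90 (adjusted p = 0.0478), and Gga1, an adaptor of the same route, one of -0.89 (adjusted p = 0.0479). The Gga1 call was lost with normexp and loess (-0.46, adjusted p = 0.0811) and with median centring (-0.32, adjusted p = 0.231), and the Igf2r call with median centring (adjusted p = 0.106). Mitf, a relative of TFEB, was likewise dim in 2D culture, and its signal was at least 1.36-fold higher in RTOC, a direction that the filter fixed as for Stfa3. M6pr, the smaller receptor, had ratios of -0.40 and -0.49 and did not pass.

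**Figure D4:**
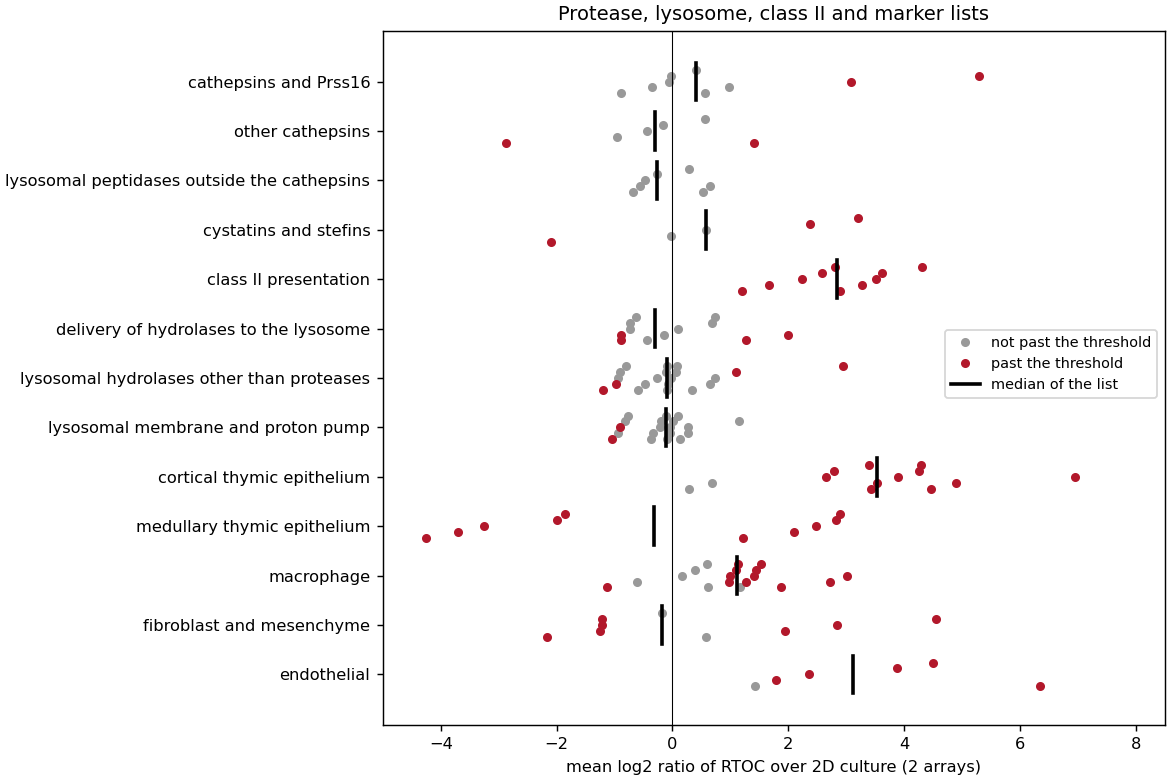
Mean log2 ratio of RTOC over 2D culture (n = 2 arrays) of each tested gene, by list, in red where past the threshold and in grey otherwise. Black bars mark the median of each list: 0.42 for the 9 proteases, 2.84 for class II presentation, 3.53 for cortical epithelium, 1.12 for macrophages and between -0.29 and -0.10 for the 4 lysosomal lists.

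Markers of some cell types also differed between the cultures, and those of others split or did not pass. Of 13 markers of cortical thymic epithelium, 11 were higher in RTOC and 0 lower, with a median ratio of 3.53. The exceptions were Krt8 and Krt18. The summed signal of the list was 258170 (E14.5) and 550572 (E15.5) in 2D culture and 853282 to 918354 in RTOC. In 2D culture Krt8 and Krt18 made up most of that sum, with 130796 and 109141 for E14.5 and 378851 and 158739 for E15.5. That sum therefore says little of the 11 called markers. Because units differ between probes, a summed signal of any list follows its brightest probes and does not measure an amount of RNA. Foxn1, the transcription factor that defines thymic epithelium, had ratios of 2.68 and 2.63, and Psmb11, the β5t gene, had ratios of 4.05 and 3.76. The higher Prss16 and Ctsl signals therefore went together with higher cortical markers, and the part of cell numbers in them was not tested. Markers of medullary epithelium split, with 5 of 10 higher (Krt5, Fezf2, Spib, Aire and Tnfrsf11a) and 5 lower (Krt14, Ivl, Cldn3, Cd80 and Cldn4), while the summed signal was 50540 to 69548 in 2D culture and 152122 to 216452 in RTOC.

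Macrophages are rich in Ctss, Ctsb and Ctsd and can express class II. Of 18 macrophage markers, 11 were higher in RTOC and 1, Msr1, was lower, with a median ratio of 1.12. Their summed signal was 93702 to 110891 in 2D culture and 254939 to 310945 in RTOC. Adgre1, a surface receptor gene of macrophages, had ratios of 2.80 and 3.22, and Ptprc, which encodes CD45, had ratios of 1.97 and 1.80. All 18 were well above background in every channel, so macrophage transcripts were present in both cultures, and their part in the ratios of the proteases and class II genes was not tested. Of 5 osteoclast markers, listed for Ctsk, 3 were tested and 0 passed (limma, 0 also at an unadjusted p under 0.05): Acp5 had ratios of 0.15 and -0.77, and Calcr and Dcstamp were not well above background in any channel.

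Of 7 dendritic cell markers, 4 were tested and 1, Zbtb46, was lower, and the summed signal was 1165 to 1712 in 2D culture and 1324 to 1411 in RTOC. Of 8 thymocyte markers, 4 were tested and 1, Cd3g, was higher, but Cd3g was not well above background in every channel. Cd8a and Rag2 were not well above background in any channel. The summed signal of the thymocyte list was 731 to 1038 in 2D culture and 1058 to 2558 in RTOC. Of 6 endothelial markers, 5 were higher, their summed signal being 668 to 1523 in 2D culture and 7717 to 12187 in RTOC. Fibroblast markers split into 3 higher and 4 lower of 9, with summed signals of 357501 to 458627 in 2D culture and 301157 to 311563 in RTOC. Of the endothelial and medullary calls, 3 endothelial ones (Cdh5, Pecam1 and Tek) and 2 medullary ones (Fezf2 and Aire) were of genes dim in 2D culture on both arrays, which could only come out higher. Of the 10 medullary markers tested, 6 were well above background in all 4 channels. The part of these cells in the protease ratios was not tested.

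The spread between arrays set how firmly each gene could be placed. Ordered by mean ratio, the genes ran Prss16, Ctsl, Ctss, Ctsc, Ctsb, Ctsh, Ctsz, Ctsk and Ctsd. From Ctss to Ctsk, the 95% interval of every gene included 0 and overlapped that of its neighbours, so their order was not resolved. The interval of Ctsd (-1.54 to -0.22) overlapped that of Ctsk (-1.09 to 0.38).

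**Figure D5:**
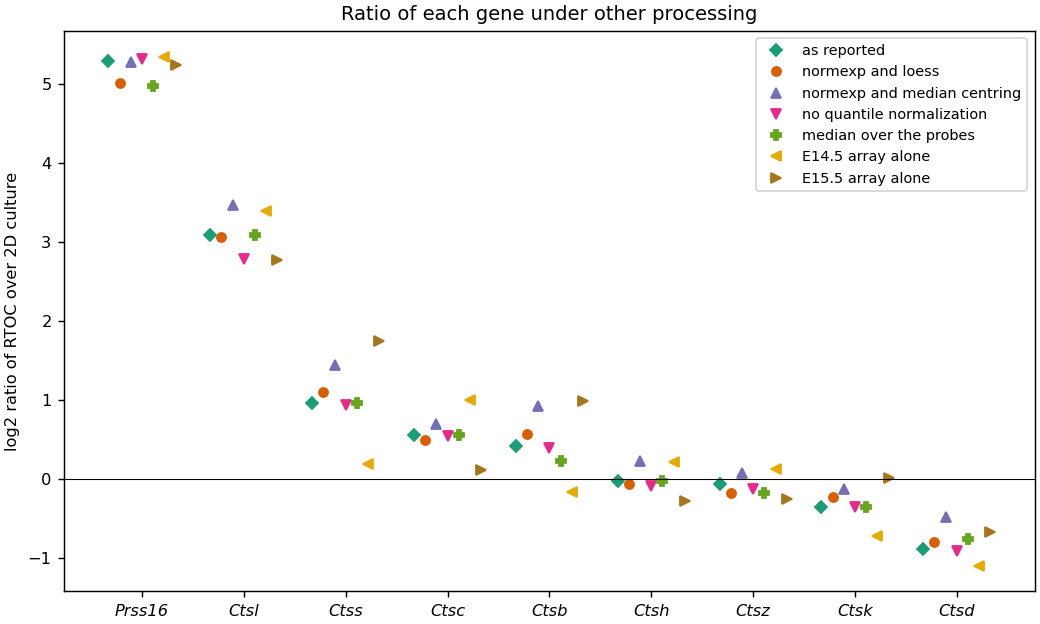
Log2 ratio of RTOC over 2D culture for the main probe of each gene as reported, under other background corrections and scalings, as the median over its probes, and on each array alone. Prss16 stayed between 4.97 and 5.34 and Ctsl between 2.77 and 3.46 in all settings drawn, whereas the values of Ctsb, Ctsh, Ctsk and Ctsz lie on both sides of 0 or close to it.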

How the data were processed

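Expression was measured on 2 two-colour Agilent mouse arrays, each with RNA of RTOC (Cy5) and 2D culture (Cy3) of fetal thymic stromal cells, E14.5 or E15.5. Conditions and dyes came from the sample labels. The authors extracted spots with Feature Extraction (11.5.1.1 in the submitters' processing notes, 9.1.3.1 in the file headers). The deposited files hold processed signals as an intensity, background-subtracted and dye-normalized within each array, with the log10 ratio of Cy5 over Cy3. The deposited table of series values is that log10 ratio, computed before any normalization between arrays (largest difference from the processed signals 5e-10). The methods name quantile normalization among the arrays.

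After control spots and outlier spots (5 for E14.5, 1 for E15.5) were removed, quantile normalization was applied to the 4 channels, and spots of a probe were averaged as log2. Of 41174 probes, 22951 were named by accession, 6659 by symbol and 3109 by an older symbol in the RefSeq table (GRCm38.p6), and 8455 kept the name in the file. Probes entered the test if each array had a channel well above background (23685 probes). Between 53.1% and 60.9% of probes were well above background in a channel, and for 175 tested probes with 5 or more spots, the median SD over spots was 0.0741 (E14.5) and 0.0663 (E15.5) in log2. The number of arrays limits the precision.

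Ratios were tested against 0 with limma 3.58.1 in R 4.3.3 (lmFit and eBayes, two-sided, Benjamini-Hochberg, threshold 0.05), with 1 residual and 4.5 prior degrees of freedom. P-values measure only the spread between these 2 pairs of cultures. A gene was represented by its tested probe of highest mean signal. The scripts were tested on simulated data. The 9 genes, the gene and marker lists and the strings searched in promoters were chosen with earlier results of these data known, and AANNGAAA was added after the Ctss window was seen. The genes named were the 9 with every probe, up to 3 highest and 3 lowest called genes of each list that were well above background in all channels, markers, and the 3 genes nearest to Prss16. One gene that this rule names is not reported here. Other list members given with values were chosen after their values were seen. Alternatives were normexp (offset 50) with loess or median centring, no quantile normalization, the series values, no filter or a stricter filter on dim probes, keeping outliers, leaving out each array, no replicate block (cultures unpaired), eBayes with trend and robust, an ordinary t-test of the ratios against 0, and the median over probes. The methods name a t-test for statistics in general and no test for the arrays. A block for slide did not apply, as both arrays were on 1 slide.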

Additional observations from a re-analysis of the deposited data

Results flagged for a closer look

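For 4 genes the log2 ratio had opposite signs at the 2 stages, and with 1 array per stage the difference was not tested. The ratio for E15.5 minus that for E14.5 was 1.14 for the main probe of Ctsb and 0.831 for its second probe, so that both probes of this gene moved the same way. It was 0.733 for Ctsk, -0.488 for Ctsh and -0.383 for the main probe of Ctsz. None of these genes passed the threshold on the mean of the arrays.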

How the results depend on the processing

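The direction of Prss16, Ctsl, Ctss, Ctsb, Ctsc, Ctsk and Ctsd was the same in every setting run on both arrays. Median centring after normexp moved the median of all tested probes to 0.12, and it turned Ctsh to 0.23 and Ctsz to 0.073, neither past the threshold. Relative to that median, Ctsh was at 0.11 and Ctsz at -0.05. Of the 9 genes, 2 passed as reported, and between 2 and 3 under the other background corrections and scalings, where the third was Ctsd. With no filter on dim probes 0 passed by limma (3 at an unadjusted p under 0.05). By the ordinary t-test of the ratios 1 passed unadjusted and 0 after Benjamini-Hochberg adjustment. Prss16 passed in 11 of 13 settings (adjusted p 0.000389 to 0.327) and Ctsl in 10 of 13 (0.000956 to 0.339). These counts hold the series values and the signals without quantile normalization as separate settings, although their values were the same. The ratio of the second Prss16 probe, dim in 2D culture, ran from 1.19 with normexp and loess to 4.78. The number of pathway genes called was 25 as reported, 16 with median centring, 15 with no replicate block, 15 by the unadjusted t-test, and 0 with no filter (37 unadjusted) or by the adjusted t-test (15 unadjusted). The number of probes called was 6820 as reported, 3709 with normexp and loess, 2904 with median centring (2219 higher and 685 lower), 4033 with no replicate block, 3539 by the unadjusted t-test, and 0 with no filter (10666 unadjusted) or by the adjusted t-test. The block here is the pairing of cultures on one array, and the 9 genes gave 2 calls with and without it. Without it the calls of Ctso, Sort1, Igf2r and Gga1 were lost (adjusted p 0.0545 to 0.0970). With eBayes trend and robust fitting the calls of Ifi30, Lipa, Ctso and Sort1 were lost (adjusted p 0.0507 to 0.0639). Each array alone gives ratios with no test, from 5.23 to 5.34 for Prss16 and from 2.77 to 3.39 for Ctsl. The cause of these differences was not tested.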
